A study of Mus musculus with 59 samples.

Results

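The genes described here hold back or drive the G1 phase of the cell cycle. They are the INK4 inhibitors *Cdkn2a*, *Cdkn2b*, *Cdkn2c* and *Cdkn2d*, the inhibitor *Cdkn1b* (p27), the D cyclins *Ccnd1*, *Ccnd2* and *Ccnd3*, their kinase *Cdk4* and its substrate *Rb1*. They were taken by gene symbol, 10 genes of the 22134 with a listed transcript, and each was followed on its transcript with the highest mean raw count. RNA was sequenced from 14 single epiblasts of mouse embryos at E6.25, after implantation and before gastrulation, in 2 crosses of heterozygous parents on a mixed background. In the *Ehmt2* cross, 4 control epiblasts labelled G9a+/+ were compared with 4 labelled G9a-/-, which lack the H3K9 dimethyltransferase G9a encoded by *Ehmt2*, and in the *Ezh2* cross 3 controls labelled Ezh+/+ were compared with 3 labelled Ezh-/-, which lack the H3K27 methyltransferase EZH2. The study's methods count heterozygous embryos among its controls, and the *Ehmt2* line carried an EGFP reporter driven by a *Pou5f1* enhancer. Each epiblast is 1 embryo, the embryos came from several litters, and the amount of a transcript per cell and the number of cells that carry it cannot be told apart in such bulk samples.

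In the textbook pathway, D cyclins bind CDK4 or CDK6, the complex phosphorylates RB, and RB then releases E2F factors that switch on genes for DNA replication. INK4 proteins bind the kinase itself and keep D cyclins away, whereas p27 binds whole cyclin and kinase complexes. The *Cdkn2a*-*Cdkn2b* locus is a classical Polycomb target that is silent in young, proliferating cells. Epiblast cells before gastrulation divide very fast and have a short G1 phase.

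Of the 10 genes, 7 passed edgeR's filter on low counts in each cross, whereas *Cdkn2a*, *Cdkn2b* and *Cdkn2c* did not. None of the 7 was called changed in either knockout by edgeR's quasi-likelihood test, where a call needed a Benjamini-Hochberg adjusted p under 0.05 over all transcripts and a log2 fold change beyond 1.4. In the *Ehmt2* cross, 0.439% of the 49710 transcripts tested were called higher and 0.0563% lower. For *Ezh2*, 0% of 50855 were called higher and 0.0118% lower. At an unadjusted p under 0.05, 1 gene was higher and 2 were lower in *Ehmt2*-/- epiblasts, against 6.15% and 5.61% of all transcripts, and 1 was higher and 0 were lower in *Ezh2*-/- epiblasts, against 4.05% and 2.97%. DESeq2 in place of edgeR called 0 of the 7 in the *Ehmt2* cross and 1, *Ccnd2*, in the *Ezh2* cross. The gene with the widest gap was *Ccnd2*, at 8.65 ± 4.47 CPM in *Ezh2* controls against 44.1 ± 7.25 CPM in *Ezh2*-/- epiblasts (SD, n = 3 each), and it was the 1 gene whose groups did not overlap, as for 6.46% of all transcripts in that direction. Its response differed between the crosses by 3.26 on the log2 scale.

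The 3 genes of the INK4 family that failed the filter include the *Cdkn2a*-*Cdkn2b* locus, and its start sites are shown because they separate the products. *Cdkn2a* has a distant upstream start for p19Arf, which stabilises p53 by binding MDM2, and a start closer to the shared exons for p16Ink4a, the CDK4 and CDK6 inhibitor. *Cdkn2b*, next to it, encodes p15Ink4b. The sequences are RefSeq promoters on GRCm38.p6, 250 bases before to 50 bases after the start, on the minus strand, with CG dinucleotides in capitals.
Cdkn2a, p19Arf start (chr4:89294570-89294869): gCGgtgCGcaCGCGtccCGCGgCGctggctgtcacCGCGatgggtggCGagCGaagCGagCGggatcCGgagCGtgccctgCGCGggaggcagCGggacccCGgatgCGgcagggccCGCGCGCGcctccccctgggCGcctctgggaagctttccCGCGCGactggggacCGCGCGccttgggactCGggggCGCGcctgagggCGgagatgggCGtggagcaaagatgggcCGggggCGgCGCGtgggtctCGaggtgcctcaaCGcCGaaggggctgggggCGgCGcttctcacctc
Cdkn2a, p16Ink4a start (chr4:89282143-89282442): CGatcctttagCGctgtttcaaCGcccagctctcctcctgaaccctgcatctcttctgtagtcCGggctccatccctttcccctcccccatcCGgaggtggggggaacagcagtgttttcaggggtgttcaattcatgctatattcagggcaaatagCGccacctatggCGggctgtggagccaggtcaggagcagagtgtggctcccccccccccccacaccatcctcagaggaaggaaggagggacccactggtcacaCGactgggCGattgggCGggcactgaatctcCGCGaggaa
Cdkn2b start (chr4:89310983-89311282): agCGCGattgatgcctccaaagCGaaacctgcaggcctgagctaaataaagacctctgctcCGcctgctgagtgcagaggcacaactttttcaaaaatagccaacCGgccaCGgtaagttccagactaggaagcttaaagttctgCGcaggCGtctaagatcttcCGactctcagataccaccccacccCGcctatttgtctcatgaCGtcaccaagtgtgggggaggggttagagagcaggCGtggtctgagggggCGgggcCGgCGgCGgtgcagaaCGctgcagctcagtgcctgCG

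The p19Arf promoter held 45 CG dinucleotides, more than 98.1% of the 32851 RefSeq promoters of 300 bases, whose median was 7. The *Cdkn2b* promoter held 18 and the p16Ink4a promoter 12. RefSeq promoters were at hand for 7 of the 10 genes, *Cdkn2a*, *Cdkn2b*, *Cdkn2c*, *Cdkn2d*, *Cdkn1b*, *Ccnd3* and *Cdk4*, 10 promoters in all, with 8 to 45 CG dinucleotides each, so every one was above the median. Promoters of *Ccnd1*, *Ccnd2* and *Rb1* were not used. The E2F-type motifs TTTCCCGC, TTTGGCGC, TTTCGCGC and TTTGCCGC, searched on both strands, matched in 2.26% of the 300-base promoters and in 1 of these 10, that of p19Arf. Such a match is a run of letters and was not tested as a binding site.

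*Cdkn2a* (ENSMUST00000107131, the p19Arf form, chromosome 4 from 89274541 to 89294653) was almost absent from controls. In the *Ehmt2* cross its counts were 0, 1, 0 and 0 in controls 1 to 4 and 41, 0, 1 and 0 in knockouts 1 to 4, so a single knockout carried nearly all of them. *Ezh2* controls 1 to 3 had 3, 0 and 0 counts and *Ezh2* knockouts 1 to 3 had 22, 7 and 2. Every *Ezh2*-/- epiblast had reads and 2 of 3 controls had none, but the lowest knockout was below the highest control. A library with no read may still hold up to 3 counts, which corresponded to 0.0484 to 0.0966 CPM per epiblast and covers counting error only. The mean was 0.0290 ± 0.0502 CPM in *Ezh2* controls and 0.319 ± 0.344 CPM in *Ezh2*-/- epiblasts (SD, n = 3 each), and a two-sided exact permutation test of CPM gave p = 0.2. The smallest value this test can give is 0.1 with 3 epiblasts against 3 and 0.0286 with 4 against 4. In the *Ehmt2* cross the exact permutation test gave p = 0.429. The transcript of p16Ink4a (ENSMUST00000060501) had 0 to 2 counts in *Ehmt2* controls against 0 to 38 in *Ehmt2*-/- epiblasts. It had 0 to 2 counts in *Ezh2* controls against 3 to 20 in *Ezh2*-/- epiblasts. Here the groups did not overlap, but the gap, 2 against 3 counts, was within the 3 counts given above. This form too failed the filter, and how often groups did not overlap among such low transcripts was not counted. Since both forms share exons, the reads cannot be assigned to p19Arf or p16Ink4a.

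*Cdkn2b* (chromosome 4 from 89306299 to 89311039) was also near 0 in controls. Counts were 0, 1, 0 and 0 in *Ehmt2* controls and 6, 8, 0 and 0 in *Ehmt2*-/- epiblasts, and 0, 1 and 0 in *Ezh2* controls and 6, 1 and 30 in *Ezh2*-/- epiblasts. The *Ezh2* knockout with the most *Cdkn2b* reads was number 3, whereas number 1 had the most *Cdkn2a* reads. The exact permutation test gave p = 0.429 in the *Ehmt2* cross and p = 0.2 in the *Ezh2* cross. *Cdkn2c* (p18Ink4c, chromosome 4 from 109660876 to 109667189) went no single way. It had 53, 2, 8 and 0 counts in *Ehmt2* controls against 8, 0, 23 and 0 in knockouts, and 11, 1 and 1 in *Ezh2* controls against 1, 6 and 0 in knockouts, with exact permutation p = 0.714 and 0.7. These 6 exact tests were not adjusted. None of them passed 0.05, and with 3 epiblasts against 3 none could, so they do not show equal levels.

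**Figure D1:**
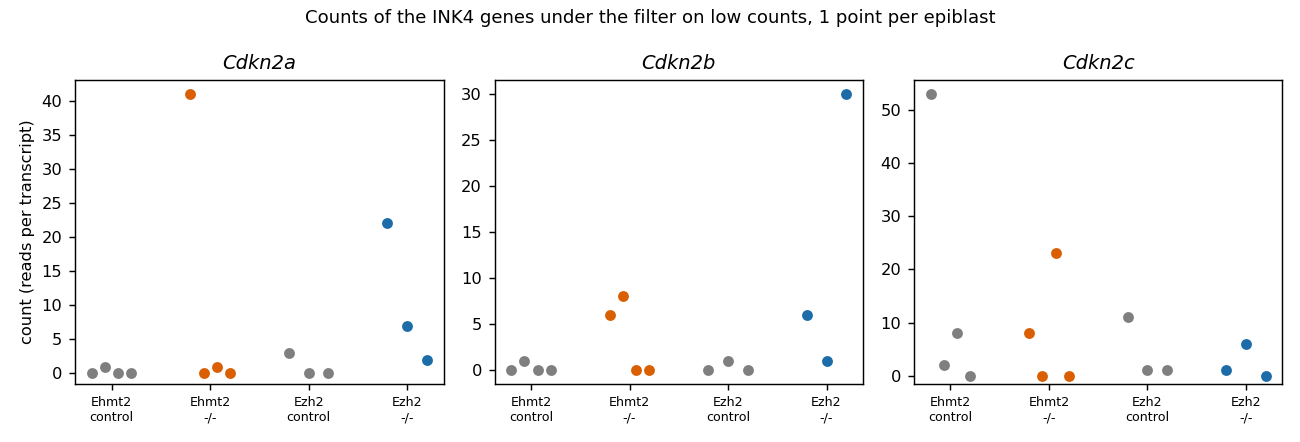
Raw counts of the 3 INK4 genes below the filter, with 1 point per epiblast and a linear axis. *Cdkn2a* reached 41 counts in 1 *Ehmt2* knockout and 22 in 1 *Ezh2* knockout, *Cdkn2b* 30 in another *Ezh2* knockout, and *Cdkn2c* was highest, at 53, in an *Ehmt2* control.

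The *Ehmt2* knockout with 41 *Cdkn2a* counts, number 1, also had the most extraembryonic ectoderm marker RNA. Summed over 10 such markers, none of them at 0 in every epiblast, it had 289 CPM, against 17.6 to 112 in the other knockouts and 23.4 to 124 in controls, and 4 of the 9 markers tested were called higher in the *Ehmt2* knockouts. For the *Ezh2* epiblasts the sums were 66.2 to 100 CPM in controls and 72.1 to 153 in knockouts, most of it *Eomes*, with means of 78.7 and 94.9 CPM. Of the 8 markers tested there, 8 had a positive log2 fold change, 4 of them at an unadjusted p under 0.05, and 0 were called, with a median of 1.52 against 0.03 over all genes. *Esrrb* (3.28, SE 0.84, adjusted p = 0.437 from edgeR) and *Hand1* (2.91, SE 0.96, adjusted p = 0.574) did not overlap between the *Ezh2* groups. Groups failed to overlap in that direction for 6.46% of all transcripts. *Esrrb* was at 0.117 ± 0.030 CPM in *Ezh2* controls (SD, n = 3) and passed the filter on low counts through the knockouts. A marker so low in controls could be tested only if it was higher in knockouts. The filter thus tilts the signs and the median of this list upward, and they are no evidence of a rise. The part of extraembryonic ectoderm cells in the *Cdkn2a* counts was not tested.

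*Cdkn2d* (p19Ink4d, chromosome 9 from 21288466 to 21291153) was the INK4 gene with the most RNA in the epiblast. The *Ehmt2* controls had 2.28, 3.74, 2.12 and 6.77 CPM of it and the *Ehmt2* knockouts 3.05, 2.28, 2.27 and 1.89 CPM. The groups overlapped, with a log2 fold change of −0.53 (SE 0.38, adjusted p = 0.637), and without both replicate 4 epiblasts the value was −0.10. Levels in *Ezh2* controls were 2.49, 2.39 and 1.58 CPM, against 3.19, 1.86 and 2.67 CPM in *Ezh2*-/- epiblasts, a log2 fold change of 0.25 (SE 0.37, 95% interval −0.58 to 1.08).

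*Cdkn1b* (p27Kip1, chromosome 6 from 134920401 to 134925513) had 7.00, 14.3, 11.7 and 15.8 CPM in *Ehmt2* controls and 7.67, 5.42, 7.61 and 10.9 CPM in *Ehmt2*-/- epiblasts. All 4 knockouts were below the mean of the controls, but control 1 was lower than 3 of them. The log2 fold change was −0.64 (SE 0.24, 95% interval −1.16 to −0.12), with an unadjusted p of 0.0194 and an adjusted p of 0.304 from edgeR. The other listed form of *Cdkn1b*, ENSMUST00000003115, gave −0.75 (SE 0.25, adjusted p = 0.254). *Ezh2* controls had 12.9, 11.5 and 10.5 CPM of p27 RNA and *Ezh2*-/- epiblasts 11.2, 10.3 and 12.9 CPM, with an interval of −0.45 to 0.41 around a log2 fold change of −0.02. The responses differed by 0.62 on the log2 scale (SE 0.32, adjusted p = 0.634), which did not pass the test.

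*Ccnd1* (chromosome 7 from 144929931 to 144939869) was the main D cyclin of every epiblast. Its levels were 149, 154, 143 and 122 CPM in *Ehmt2* controls, and the knockouts had 90.1, 100.2, 154 and 124 CPM, so that knockouts 1 and 2 lay below every control and knockouts 3 and 4 did not. The log2 fold change was −0.27 (SE 0.16, 95% interval −0.61 to 0.07, adjusted p = 0.535). *Ezh2* controls had 135, 139 and 152 CPM, against 131, 171 and 156 CPM in *Ezh2*-/- epiblasts, a log2 fold change of 0.11 (SE 0.12, 95% interval −0.17 to 0.38). A retained-intron form of *Ccnd1*, ENSMUST00000135985, had 543 to 594 counts in *Ezh2* controls and 632 to 897 in knockouts, with a log2 fold change of 0.45 (SE 0.15, adjusted p = 0.581 from edgeR). Its groups did not overlap, as for 6.46% of all transcripts in that direction, and it did not pass the adjusted test.

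*Ccnd2* (ENSMUST00000000188, chromosome 6 from 127125162 to 127151060) was a minor D cyclin in controls and several times higher in *Ezh2*-/- epiblasts. It had 11.7, 10.7 and 3.51 CPM in *Ezh2* controls 1 to 3, from 404, 363 and 120 counts. The *Ezh2* knockouts had 52.3, 41.9 and 38.3 CPM, from 1623, 1512 and 1407 counts. Every knockout was above every control by a wide margin. The ratio was 5.10, a log2 fold change of 2.35 (SE 0.36, 95% interval 1.55 to 3.15), with an unadjusted p of 5.73e-05 and an adjusted p of 0.139 from edgeR. It therefore missed the threshold over all transcripts, where 1.49% of transcripts were higher with an unadjusted p under 0.05 and a log2 fold change beyond 1.4. With DESeq2 in place of edgeR the adjusted p was 0.00322, in a fit that called 0.301% of transcripts higher, and by the per-embryo rule modelled on the study's methods *Ccnd2* was called, at a log2 fold change of 2.15 to 2.59 in each knockout, beside 0.57% of transcripts. Without *Ezh2* control 3, the control with the least *Ccnd2*, it was called too, at 1.97 with an adjusted p of 0.0276.

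In the *Ehmt2* cross *Ccnd2* leaned the other way. Controls 1 to 4 had 4.36, 12.4, 6.95 and 2.36 CPM, and knockouts 1 to 4 had 2.55, 4.87, 4.39 and 1.55 CPM. All 4 knockouts were below the mean of the controls and the groups overlapped. The log2 fold change was −0.91 (SE 0.34, 95% interval −1.66 to −0.16), with an unadjusted p of 0.0214 and an adjusted p of 0.317 from edgeR, and among replicates 1 to 3 alone it was −1.01 (adjusted p = 0.302). In a fit over all 14 epiblasts, the *Ezh2* effect exceeded the *Ehmt2* effect by 3.26 on the log2 scale (SE 0.54, 95% interval 2.13 to 4.40, adjusted p = 0.0332 from edgeR). *Ccnd2* was thereby the 1 called of the 8 genes tested in that fit, where 0.0236% of 55200 transcripts were called in this direction and 0.0326% in the other. The direction was the same under all 22 alternatives, with a difference of 2.88 to 3.53, but the call was lost in 14 of them, with an adjusted p of up to 0.219. It was kept when *Ehmt2* control 1, *Ezh2* control 1 or *Ezh2* control 3 was left out and lost without any other epiblast, at an adjusted p of up to 0.121.

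Some measured features of the epiblasts stand beside the *Ccnd2* result. Summed over 10 visceral endoderm markers, *Ezh2* control 2 had 1196 CPM and *Ezh2* knockout 1 had 2664 CPM, whereas the other epiblasts of the cross had 18.7 to 28.7. Without these 2 epiblasts the log2 fold change of *Ccnd2* in the *Ezh2* cross was 2.40 (adjusted p = 0.191 from edgeR). The difference between the crosses was then 3.31 (adjusted p = 0.101), a call lost. Primitive streak and mesoderm markers summed to 76.2 to 146 CPM in *Ezh2* controls and 94.4 to 200 CPM in knockouts. Most of this sum too was *Eomes* (means 78.7 and 94.9 CPM), which is in both this list and the extraembryonic ectoderm list. The extraembryonic ectoderm markers given above, with a median log2 fold change of 1.52 in this cross, also lay higher in knockouts without being called. As stated there, the filter on low counts tilts that median upward. The part of either list in the result was not tested. *Ccnd2* lies 79.5 Mb from *Ezh2* on the same chromosome, and inherited strain differences near the mutated allele were not tested.

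*Ccnd3* (chromosome 17 from 47505051 to 47599683) was at 17.0, 23.7, 22.1 and 28.2 CPM in *Ehmt2* controls, whereas the *Ehmt2* knockouts had 35.5, 21.5, 27.4 and 32.1 CPM. The groups overlapped, and the log2 fold change was 0.37 (SE 0.18, 95% interval −0.02 to 0.75, adjusted p = 0.447). With 22.5, 21.8 and 21.1 CPM in *Ezh2* controls and 25.3, 21.1 and 23.2 CPM in *Ezh2*-/- epiblasts, it had a log2 fold change of 0.09 (SE 0.15, 95% interval −0.23 to 0.41). The gene is 12.6 Mb from *Ehmt2* on chromosome 17.

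Because the D cyclins can stand in for one another on CDK4, their levels were also compared per kb of transcript. In *Ezh2* controls *Ccnd1* made up 76.4 ± 2.68% of the D cyclin RNA per kb, *Ccnd3* 20.8 ± 1.23% and *Ccnd2* 2.78 ± 1.48% (SD, n = 3). In *Ezh2*-/- epiblasts the shares were 69.2 ± 5.22%, 18.8 ± 2.83% and 12.0 ± 2.59%. The *Ccnd2* share was 14.96%, 10.6% and 10.3% in the 3 knockouts and 3.81%, 3.45% and 1.09% in the 3 controls. The 3 genes summed to 48.5, 49.1 and 51.0 CPM per kb in *Ezh2* controls and to 55.2, 62.3 and 58.6 in knockouts. In the *Ehmt2* cross the sum was 49.7 ± 3.29 in controls and 45.6 ± 7.63 in knockouts (SD, n = 4), and the *Ccnd2* share was 2.01 ± 1.21% and 1.20 ± 0.65%. Knockout 1 of the *Ehmt2* cross had the lowest *Ccnd1* share, 58.4%, and the highest *Ccnd3* share, 40.7%.

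**Figure D2:**
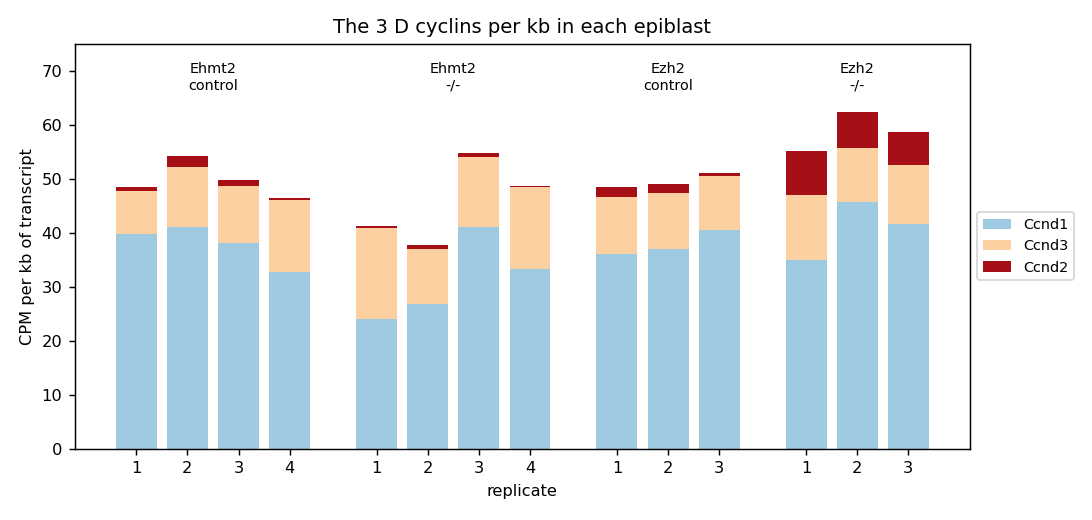
Level of each D cyclin in CPM per kb of transcript (vertical axis, from 0), stacked for every epiblast. *Ccnd1* is the largest block in all 14 epiblasts, and the *Ccnd2* block reaches 10.3 to 14.96% of the total in *Ezh2* knockouts and stays at or below 3.81% in the others.

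*Cdk4* (chromosome 10 from 127063534 to 127067920), the kinase, had the smallest standard errors of the 7 genes. Its *Ehmt2* controls had 165, 149, 140 and 202 CPM and the *Ehmt2* knockouts 141, 146, 142 and 220 CPM, a log2 fold change of −0.03 (SE 0.09, 95% interval −0.23 to 0.17). The *Ezh2* controls had 141, 134 and 136 CPM and the *Ezh2* knockouts 136, 127 and 115 CPM, a log2 fold change of −0.13 (SE 0.11, 95% interval −0.36 to 0.11). Both intervals end within 0.36 of 0 on the log2 scale. All 3 *Ezh2* knockouts were below the mean of the controls, and the groups overlapped for this form. Other listed forms of *Cdk4* were mixed. In some the groups overlapped too, and in some every knockout was below every control. One of the latter was ENSMUST00000135179 (−0.24, SE 0.13, adjusted p = 0.785 from edgeR). The share of all transcripts that did so in that direction is not given.

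*Rb1* (chromosome 14 from 73195502 to 73325822), the substrate, had 7.46, 3.38, 3.41 and 1.79 CPM in *Ehmt2* controls and 6.18, 11.0, 6.97 and 7.43 CPM in *Ehmt2*-/- epiblasts. The 4 knockouts were above the mean of the controls, whereas control 1 lay above 3 of them. The log2 fold change was 1.07 (SE 0.35, 95% interval 0.30 to 1.85), with an unadjusted p of 0.0106 and an adjusted p of 0.245 from edgeR. Among replicates 1 to 3 alone it was 0.76 (adjusted p = 0.432). *Ezh2* controls had 4.49, 3.16 and 5.18 CPM of *Rb1*, against 5.47, 4.85 and 5.58 CPM in *Ezh2*-/- epiblasts, a log2 fold change of 0.31 (SE 0.28, 95% interval −0.31 to 0.92). The *Rb1* effects differed between the crosses by −0.76 (SE 0.49, adjusted p = 0.722).

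**Figure D3:**
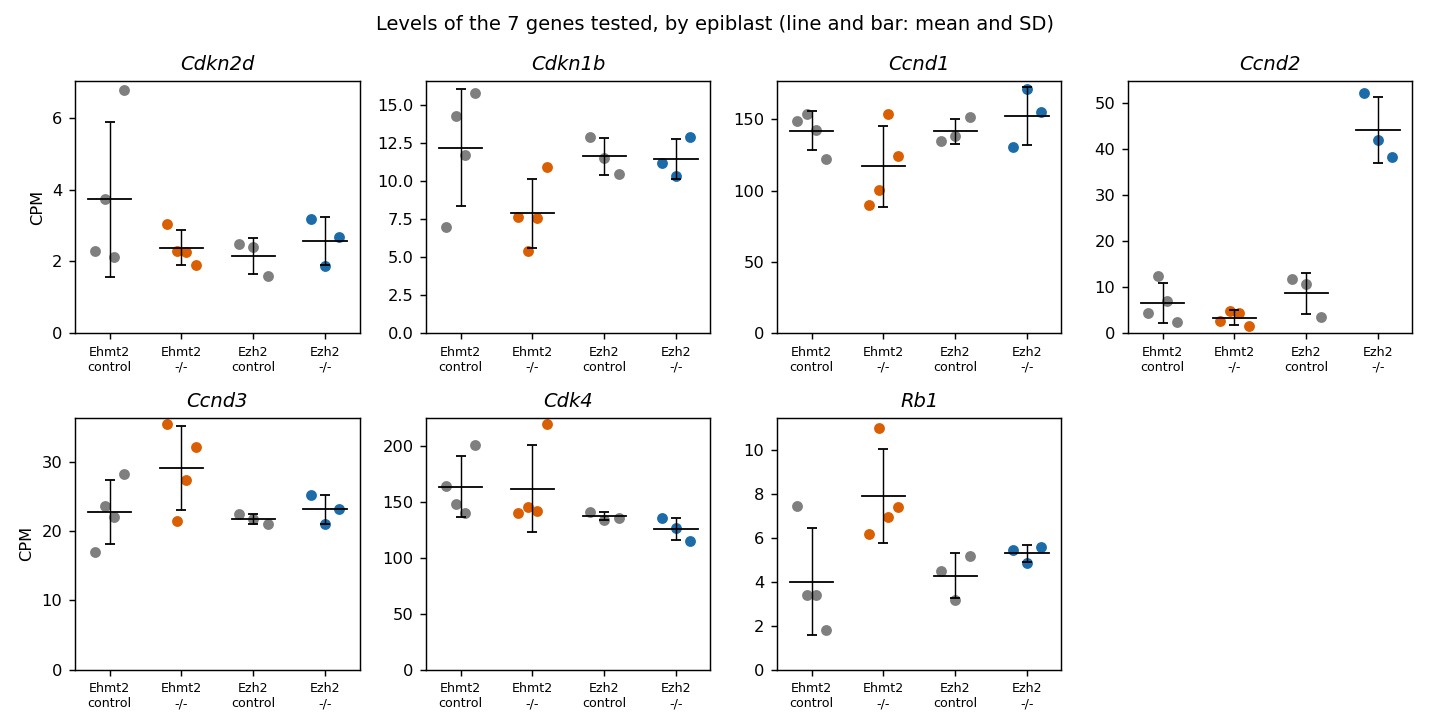
CPM of the 7 genes that passed the filter (linear vertical axes from 0), with 1 point per epiblast and the mean and SD of each group. *Ccnd2* is at 38.3 to 52.3 CPM in *Ezh2* knockouts and at most 12.4 CPM elsewhere, and in the other 6 genes the groups of each cross overlap.

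Set side by side, the fold changes of the 7 genes spanned −0.91 (*Ccnd2*) to 1.07 (*Rb1*) in the *Ehmt2* cross and −0.13 (*Cdk4*) to 2.35 (*Ccnd2*) in the *Ezh2* cross. Between the crosses, 7 of the 8 genes tested did not pass the test of the difference, with adjusted p values from edgeR of 0.634 or more. For *Cdkn2c*, which passed the filter only in the fit over all epiblasts, the difference was −0.01 with an SE of 3.25, too wide to inform. The difference for *Ccnd3* was −0.28 (95% interval −0.79 to 0.23), and for *Cdk4* it was −0.09 (95% interval −0.38 to 0.19).

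**Figure D4:**
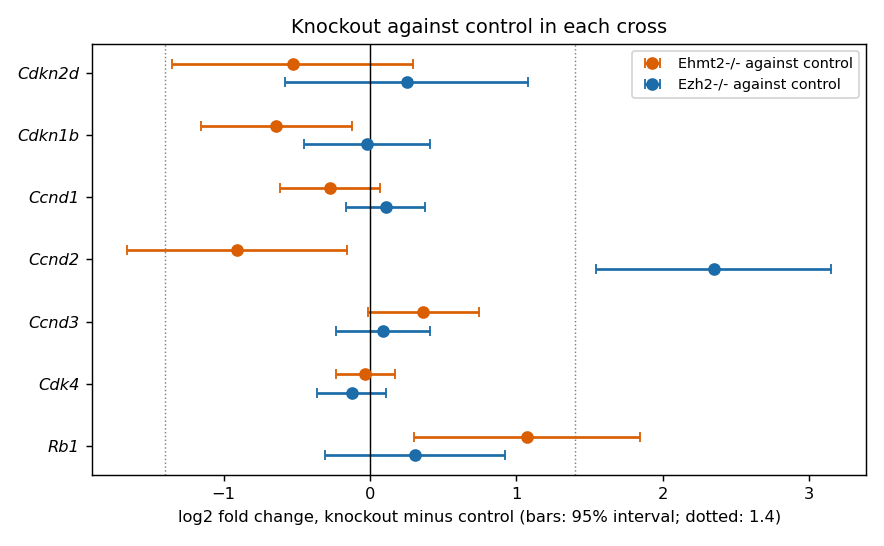
Log2 fold change of knockout over control for the 7 genes tested, with 95% intervals and dotted lines at 1.4 in either direction. The interval of *Ccnd2* in the *Ezh2* cross, 1.55 to 3.15, is the 1 that lies wholly beyond a dotted line.

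In controls, RNA of the kinase and of its main cyclins was far more abundant than RNA of the inhibitors. Per kb of transcript, *Cdk4* stood at 66.9 ± 1.78 CPM, *Ccnd1* at 37.9 ± 2.35 and *Ccnd3* at 10.3 ± 0.35 in *Ezh2* controls (SD, n = 3). *Cdkn1b* followed at 2.56 ± 0.27, *Cdkn2d* at 1.71 ± 0.40, *Ccnd2* at 1.37 ± 0.71 and *Rb1* at 0.92 ± 0.22. *Cdkn2c*, *Cdkn2a* and *Cdkn2b* came last at 0.051 ± 0.068, 0.032 ± 0.056 and 0.0071 ± 0.012. The ranges of *Cdk4*, *Ccnd1*, *Ccnd3*, *Cdkn1b* and *Rb1* did not overlap with the next gene's, whereas *Cdkn2d* overlapped *Ccnd2*, *Ccnd2* overlapped *Rb1*, and the last 3 overlapped each other. In *Ehmt2* controls the order was the same except that *Cdkn2d* (2.95 ± 1.70) stood above *Cdkn1b* (2.68 ± 0.85), and the ranges of these neighbours overlapped (SD, n = 4). Apart from *Cdk4*, *Ccnd1* and *Ccnd3*, all neighbours in that order overlapped in *Ehmt2* controls.

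The knockouts carried less of the targeted transcript. *Ehmt2* was at 10.3, 11.1, 15.5 and 32.8 CPM in its controls, against 4.73, 4.47, 3.22 and 9.46 CPM in its knockouts, a log2 fold change of −1.63 (SE 0.21, adjusted p = 0.00452 from edgeR). *Ezh2* was at 53.4, 67.2 and 112 CPM in its controls, against 11.8, 12.0 and 16.6 CPM in its knockouts, −2.52 (SE 0.27, adjusted p = 0.016). Counts summed over all transcripts were 32431296 to 78951344 per epiblast in the *Ehmt2* cross, with both replicate 4 libraries the deepest and differing from the others of their group (chi-square per degree of freedom 118 to 148, against 13.6 to 25.0 among replicates 1 to 3), and 30161171 to 37500157 in the *Ezh2* cross. Markers of the epiblast were present throughout, but their sum over 10 genes was lower in every *Ehmt2* knockout than in every control. It was 2707 to 3057 CPM in *Ehmt2* controls and 1624 to 2376 in *Ehmt2* knockouts. In the *Ezh2* cross it was 2739 to 2980 in controls and 2237 to 2946 in knockouts. Most of the sum was *Dnmt3b*, with means of 1748 and 1239 CPM in *Ehmt2* controls and knockouts. At an unadjusted p under 0.05 from edgeR, 4 of the 10 were lower in *Ehmt2* knockouts and 0 higher. These were *Pou5f1* (−0.47), *Otx2* (−0.44), *Fgf5* (−0.70) and *Dnmt3b* (−0.50), and none was called.

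Other genes of the G1 and RB pathway were read from a list of 30, of which 29 were tested in each cross. In *Ehmt2*-/- epiblasts 1 was called higher and 0 lower, namely *Cdkn1a* (p21), an inhibitor of cyclin and CDK complexes and a p53 target, with a log2 fold change of 2.65 (SE 0.34, adjusted p = 0.00434 from edgeR). At an unadjusted p under 0.05, *Cdkn1c* (p57, 1.34), *Cdk2* (0.36), *Fbxo4* (2.33) and the Polycomb gene *Bmi1* (1.20) were also higher, and *E2f4* (−0.32) and *Myc* (−0.35) lower, without passing adjustment. The median log2 fold change of the list was −0.02, against 0.01 over all genes with 1 transcript each. In *Ezh2*-/- epiblasts edgeR called no gene of the list and DESeq2 called 1, *Bmi1*, higher. *Cdk6*, the other kinase partner of D cyclins, was at 8.48 ± 2.05 CPM in controls, against 19.3 ± 2.37 CPM in knockouts (SD, n = 3), and its log2 fold change was 1.19 (SE 0.22, adjusted p = 0.266 from edgeR), and its groups did not overlap. *Bmi1* (1.62, SE 0.31, adjusted p = 0.314) and *Cdkn1c* (1.28, SE 0.30, adjusted p = 0.404) likewise did not overlap between groups, as for 6.46% of all transcripts in that direction. *Cdk2* (−0.52) and *Tfdp2* (−0.37) were lower at an unadjusted p under 0.05, as were 2.97% of all transcripts. Not every gene of the list whose groups did not overlap, with knockouts higher, had such a p. The median of the list was −0.04, against 0.03 over all genes.

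Transcripts that RB and E2F control were read from 15 genes, all tested in both crosses. None was called in either knockout by edgeR or DESeq2. At an unadjusted p under 0.05, *Cdc6*, which loads the replicative helicase, was higher in *Ehmt2*-/- (0.45, adjusted p = 0.129) and lower in *Ezh2*-/- epiblasts (−0.77, adjusted p = 0.404), and *Tyms* (−0.27) and *Tk1* (−0.42) were lower in *Ehmt2*-/- epiblasts. The list's median was 0.02 in the *Ehmt2* cross, against 0.01 over all genes. It was −0.14 in the *Ezh2* cross, against 0.03 over all genes, and there 2 of the 15 had a positive log2 fold change. The summed level of the 15 was 1365 to 1495 CPM in *Ezh2* controls and 1189, 1275 and 1309 CPM in *Ezh2* knockouts 1 to 3. Of these, knockout 1 had the most visceral endoderm marker RNA, and the part of such cells in the sums was not tested.

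**Figure D5:**
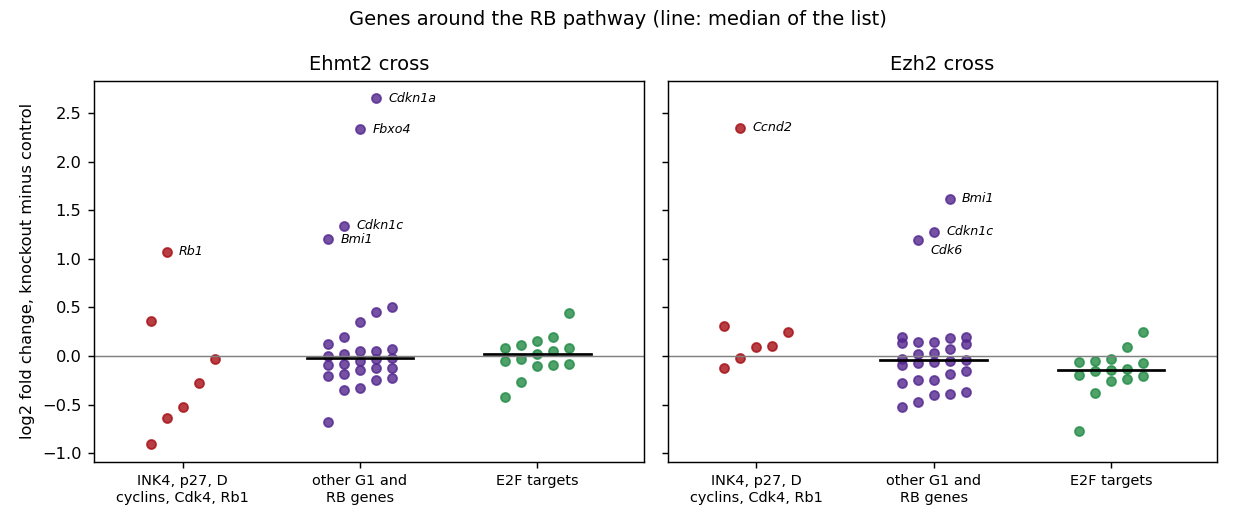
Log2 fold change of knockout over control in each cross, with 1 point per tested gene and the median of both longer lists as a line. Named points have an unadjusted p under 0.05 and a log2 fold change beyond 1, and *Cdkn1a* in the *Ehmt2* cross is the 1 gene called.

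The genes whose pattern over the 14 epiblasts was most like that of each D cyclin were found by the root mean square difference of centred log2(CPM + 0.5), among 13323 genes. For *Ccnd2* they were *Hoxd13* (0.71), *Nrbp2* (0.72) and *Ptprd* (0.72), against a spread of *Ccnd2* about its own mean of 1.43. For *Ccnd1* they were *Zic5* (0.14), 4930470G03Rik (0.16) and 2700097O09Rik (0.16), against 0.23, and for *Ccnd3* they were *Clta* (0.14), *Aifm1* (0.15) and *Nek2* (0.15), against 0.28.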

How the data were processed

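RNA from single epiblasts at E6.25 was amplified and sequenced. The authors trimmed reads to 40 nt, aligned them with TopHat2 to GRCm38 and counted them per Ensembl release 74 transcript by HTSeq-count. These raw counts are what was deposited, without scaling, and transcripts absent from a file were set to 0. Names and positions came from GENCODE vM21, where 70021 of 72516 transcripts (96.6%) matched. How reads shared by isoforms were counted can move all isoform values. The ChIP-seq and bisulfite files were not used.

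Each cross was filtered with filterByExpr, scaled with TMM to CPM and tested with edgeR's quasi-likelihood fit, with a term for comparison set (replicates 1 to 3, replicate 4) in the *Ehmt2* cross. The SE was taken from the log2 fold change and the F statistic (ratio of the former to the root of the latter). The difference between crosses was fitted over all 14 epiblasts. The per-embryo rule required a log2 fold change beyond 1.4 in every knockout, Fisher's combined p under 0.05 without adjustment and a normalised count of at least 5. The knockouts share their controls, so the p-values combined are not independent and the combined p can be too small. Genes failing the filter were compared by exact permutation tests. Named were all 10 genes, *Ehmt2*, *Ezh2*, list genes called or with an unadjusted p under 0.05, and the 3 genes most like each D cyclin. Genes and lists were chosen with earlier results of these data known. Blood markers (4 of 6 listed, at most 0.954 CPM summed) and decidua markers (2.45 to 31.3 CPM) were also read. p-values measure the spread between single embryos. Code was tested on simulated data. Software used was DESeq2 1.42.0, edgeR 4.0.16, R 4.3.3, Python 3.11.15, pandas 2.3.3, scipy 1.17.1 and matplotlib 3.10.9.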

Additional observations from a re-analysis of the deposited data

Results flagged for a closer look

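In groups of 4 epiblasts, 32 groups of values were looked at for a sample far from the others by Dixon's test. Chance alone gives about 1 in 20 for values with a normal spread. A group with reads in 1 epiblast only is always flagged, so this rate does not hold for the low INK4 genes. In *Ehmt2* controls, replicate 2 stood out for *Cdkn2a* and for *Cdkn2b*, at 0.0212 CPM each, which is 1 count against 0 in the other controls, and replicate 1 stood out for *Cdkn2c*, at 1.30 CPM. In *Ehmt2* knockouts, replicate 1 stood out for *Cdkn2a*, at 1.15 CPM, and replicate 4 for *Cdk4*, at 220 CPM.

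The log2 fold change differed between the crosses for *Ccnd2*, by 3.26 (*Ezh2* effect minus *Ehmt2* effect, adjusted p = 0.0332 from edgeR), with all 3 *Ezh2* knockouts above and all 4 *Ehmt2* knockouts below the mean of their controls. It also differed for the targeted genes, by 1.72 for *Ehmt2* and −2.39 for *Ezh2*.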

How the results depend on the processing

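None of the 10 genes was called in the *Ehmt2* cross under any of the alternatives run. In the *Ezh2* cross 1 gene, *Ccnd2*, was called higher with DESeq2 (log2 fold change 2.35, adjusted p = 0.00322), with no filter on low counts (2.34, 0.0287), with the replicate block (2.50, 0.0395) and by the per-embryo rule, and 0 or 1 gene with an epiblast left out. *Ccnd2* stayed between 1.97 and 2.63 over its 13 alternatives, with adjusted p from 0.00322 to 0.592. The count of genes whose effect differed between the crosses, 1, went to 0 with no term for the comparison set (*Ccnd2* 3.32, adjusted p = 0.219), without both replicate 4 epiblasts (3.36, 0.0702), without both epiblasts high in visceral endoderm markers (3.31, 0.101) and to 0 or 1 with single epiblasts left out (2.88 to 3.53). Leaving out the replicate 4 epiblasts for this difference, and the epiblasts high in visceral endoderm markers throughout, was chosen after seeing the data. The causes were not tested.

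*Ehmt2* itself missed the threshold with no term for the comparison set (−1.66, adjusted p = 0.295), and *Ezh2* with 1 transcript per gene (−2.55, adjusted p = 0.0789) and without *Ezh2* knockout 1, 2 or 3 (−2.74 to −2.16 over single omissions, adjusted p up to 0.343). Signs turned for *Cdk4* in the *Ehmt2* cross (−0.087 to 0.024 with epiblasts left out), *Cdkn1b* in the *Ezh2* cross (−0.12 to 0.057) and the *Cdkn2c* difference, which was 0.050 with the replicate block, 0.039 with no set term, 0.033 without replicate 4 and −1.94 to 1.97 with epiblasts left out. Without a filter the 3 low INK4 genes could be fitted: *Cdkn2a* had 4.93 (adjusted p = 0.323) and 3.28 (0.757) and *Cdkn2b* 3.38 (0.515) and 4.70 (0.637) in the *Ehmt2* and *Ezh2* crosses. The *Cdkn2a* difference between the crosses, where it could be fitted, lay between −2.15 and 1.73 and was positive only without *Ezh2* control 1.

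Whether replicate numbers pair the epiblasts could not be told, since which of them shared a litter was not given. Deviations of same-numbered epiblasts correlated at 0.05 to 0.37 in the *Ehmt2* cross and −0.11 to 0.16 in the *Ezh2* cross. *Ehmt2* controls 2, 3 and 4 and *Ezh2* control 3 correlated best with the knockout of their own number. *Ehmt2* control 1 and *Ezh2* controls 1 and 2 did not. With the replicate block, transcripts called fell from 218 to 99 higher and from 28 to 6 lower in the *Ehmt2* cross. In the *Ezh2* cross 3 were called higher and 7 lower with the block, against 0 and 6. Counts of all calls also moved by tool, with DESeq2 calling 538 higher and 188 lower in the *Ehmt2* cross and 153 and 25 in the *Ezh2* cross. The other values of the genes that passed the filter kept direction and side of the threshold, and levels in controls moved by less than 1 SD. The low INK4 genes had counts of 0 to 53, where counting error is wide. Their smallest unadjusted p without a filter was 0.0200 for *Cdkn2a* in the *Ehmt2* cross and 0.0140 for *Cdkn2b* in the *Ezh2* cross.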
